A study of Mus musculus with 14 samples.

Results

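The constitutive proteasome genes of the mouse were followed in gastrocnemius muscle and lung of tumour-bearing and control mice. The 35 members were taken by gene symbol from the 55416 genes of the tables, by a rule that uses no measured value; the set was picked with earlier results of these data known. They are the 7 alpha genes (Psma1 to Psma7) and the 7 beta genes (Psmb1 to Psmb7) of the 20S core, the 6 ATPase genes (Psmc1 to Psmc6) and 11 non-ATPase genes (Psmd1, Psmd2, Psmd3, Psmd4, Psmd6, Psmd7, Psmd8, Psmd11, Psmd12, Psmd13 and Psmd14) of the 19S cap, and the 4 activator genes Psme1 to Psme4. All 35 were found, and all 35 passed the filter on low counts in both tissues. The inducible subunits of the immunoproteasome are not members and are described beside them.

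The proteasome is the protease complex that degrades most ubiquitin-tagged proteins of the cell. Its 20S core is a barrel of stacked alpha and beta rings in which the beta subunits encoded by Psmb5, Psmb6 and Psmb7 cut proteins, and its 19S cap binds ubiquitin chains, removes them and drives the unfolded substrate into the barrel with a ring of ATPases. In skeletal muscle, this pathway, fed by the ubiquitin ligases Trim63 (MuRF1) and Fbxo32 (atrogin-1), is known for its part in the loss of muscle protein during wasting.

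The series holds 14 RNA-seq libraries of male C57BL/6 (C57BL/6NCrlOri) mice aged 6 to 8 weeks. The tumour-bearing (TB) groups are 3 gastrocnemius and 5 lung libraries of mice given 5000000 cells of the KrasIKKaL line into the trachea. The control (CON) groups are 3 gastrocnemius and 3 lung libraries. The sources used here do not give what control mice received or which libraries come from the same mouse. The labels do not say that the libraries of a group come from separate mice, so a p-value measures the spread between these libraries. The design compares TB with CON in each tissue, and the stated aim of the series is to find treatment targets in cachexia, the wasting that accompanies cancer. Library totals were 32476194 to 44169410 counts in muscle and 47947363 to 61087315 counts in lung.

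The labelled tissues were checked against marker genes. The summed level of 5 muscle fibre markers was 60790 to 101000 CPM (counts per 1000000 counts of the library, TMM-scaled within each tissue) in TB and 69000 to 78920 CPM in CON muscle, with 0 of 5 past the test, and Sftpc, Sftpa1 and Sftpd of alveolar type 2 cells were at 0 in all muscle libraries. In lung, the 5 alveolar type 2 markers summed to 13.5 to 993 CPM in TB and 19800 to 21870 CPM in CON, so the defining markers of that cell type were nearly absent from some TB lung libraries. Bulk libraries cannot tell fewer cells of a type from less RNA per cell, and this holds for every value given here.

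Levels can be compared between genes only per length, in the deposited TPM (transcripts per 1000000 transcripts). The median TPM of the 31 core and cap genes was 121 in TB and 53.1 in CON muscle, and 130 in TB and 83.0 in CON lung. These 31 genes were spread widely around it. Their highest mean was 23.1 times their lowest in TB muscle and 14.4 times in CON muscle. In lung it was 7.47 times in TB and 4.54 times in CON. Of all 35 members, activators included, Psmd8 led in TB muscle with 653 ± 342 TPM (SD, n = 3). Psmd4 followed with 562 ± 85.4 TPM, and the pair overlapped between libraries. In CON muscle Psmb6 led with 167 ± 39.8 TPM and Psma3 followed with 152 ± 52.9 TPM, which also overlapped. In TB lung Psmb3 and Psma7 led with 285 ± 73.6 and 268 ± 65.4 TPM (n = 5), and in CON lung Psme1 and Psmb6 led with 192 ± 16.0 and 181 ± 6.80 TPM (n = 3). The lowest mean of the 35 was that of Psme2 in TB muscle (18.3 ± 11.1 TPM) and Psmd14 in CON muscle (11.6 ± 5.87 TPM). In both lung groups it was that of Psme4 (23.1 ± 5.41 TPM in TB and 17.4 ± 0.642 TPM in CON). Together the 35 genes took 0.903, 0.673 and 0.607% of all counts in TB muscle libraries 1 to 3, against 0.352, 0.268 and 0.202% in CON muscle libraries 1 to 3. The share was 0.421, 0.586, 0.445, 0.470 and 0.395% in TB lung libraries 1 to 5, against 0.261, 0.255 and 0.264% in the CON lung libraries. In neither tissue did the shares of the groups overlap.

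The promoter windows shown here belong to 4 members chosen as examples of the motifs: Psmd4, the activator Psme3, and the core genes Psmb5 and Psmb6. Each holds a CCAAT box (CCAAT, bound by NF-Y) or the core of an antioxidant response element (TGACNNNGC, bound by NRF1 and NRF2). Each runs from 250 bases before to 50 bases after the RefSeq gene start in GRCm38.p6, 5′ to 3′ on the gene's strand, with matches on either strand in capitals.
Psmd4, chr3:95042565-95042864, minus strand: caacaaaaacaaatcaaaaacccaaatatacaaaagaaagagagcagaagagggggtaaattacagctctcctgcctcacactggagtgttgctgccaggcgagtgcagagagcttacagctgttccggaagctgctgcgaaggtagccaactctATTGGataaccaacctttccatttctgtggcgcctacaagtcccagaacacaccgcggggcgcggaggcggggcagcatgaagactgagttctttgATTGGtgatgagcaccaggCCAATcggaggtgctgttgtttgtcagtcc
Psme3, chr11:101315963-101316262, plus strand: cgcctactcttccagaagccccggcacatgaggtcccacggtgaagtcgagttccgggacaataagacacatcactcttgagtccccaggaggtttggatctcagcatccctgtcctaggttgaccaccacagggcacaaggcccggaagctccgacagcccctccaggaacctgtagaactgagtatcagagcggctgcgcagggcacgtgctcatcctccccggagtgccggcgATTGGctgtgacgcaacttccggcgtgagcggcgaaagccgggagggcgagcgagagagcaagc
Psmb5, chr14:54617946-54618245, minus strand: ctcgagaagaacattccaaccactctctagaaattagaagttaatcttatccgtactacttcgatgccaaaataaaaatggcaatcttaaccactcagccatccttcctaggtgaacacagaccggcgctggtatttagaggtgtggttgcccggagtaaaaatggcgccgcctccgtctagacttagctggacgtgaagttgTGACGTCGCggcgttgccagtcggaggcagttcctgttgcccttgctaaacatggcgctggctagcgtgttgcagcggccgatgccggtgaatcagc
Psmb6, chr11:70525107-70525406, plus strand: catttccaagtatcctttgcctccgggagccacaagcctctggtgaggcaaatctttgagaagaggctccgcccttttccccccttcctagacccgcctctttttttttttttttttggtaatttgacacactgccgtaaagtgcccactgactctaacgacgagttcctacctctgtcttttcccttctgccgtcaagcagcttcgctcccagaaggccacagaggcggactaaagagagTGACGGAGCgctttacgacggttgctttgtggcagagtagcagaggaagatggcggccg
The Psmd4 window holds CCAAT in 3 places, 1 beginning 95 bases before the start and 2 after it. In Psme3 it begins 14 bases before the start. The antioxidant response element core begins 47 bases before the start in Psmb5 and 9 bases before it in Psmb6. A window was given for 29 of the 35 members: 5 of them (17.2%) hold the antioxidant response element core, against 14% of the 27025 genes with a window. The CCAAT box stands in 11 of the 29 (37.9%), against 41.1% of all genes with a window, and no member window holds both. Each motif was found both in members that rose in muscle and in members that did not pass there. Of the 5 with the antioxidant response element core, Psmc6 and Psmd12 rose, and Psmb5, Psmb6 and Psme4 did not pass. Of the 11 with CCAAT, all but Psma3 and Psma1 rose. Psmd8 and Psmc4 hold neither and rose. Whether motif and change are linked was not tested. These are matches of letters, which describe the windows and say nothing of binding.

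In TB muscle most genes of the proteasome core and cap rose: 27 of the 35 members were higher than in CON muscle, 1 was lower and 7 did not pass the test (edgeR quasi-likelihood, Benjamini-Hochberg adjusted p below 0.05 over all genes). Among all 14373 genes tested, 15.3% passed, 8.53% as higher and 6.75% as lower. The median log2 fold change was 1.25 over the 35 members and -0.03 over all genes tested. All 6 ATPase genes of the cap rose, with a median log2 change of 1.65, and 10 of the 11 non-ATPase genes rose, with a median of 1.34. In the core, 5 of 7 alpha genes rose (median 1.23) and 5 of 7 beta genes rose (median 1.08). The activators split: Psme3 rose, Psme1 fell, and Psme2 and Psme4 did not pass.

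**Figure D1:**
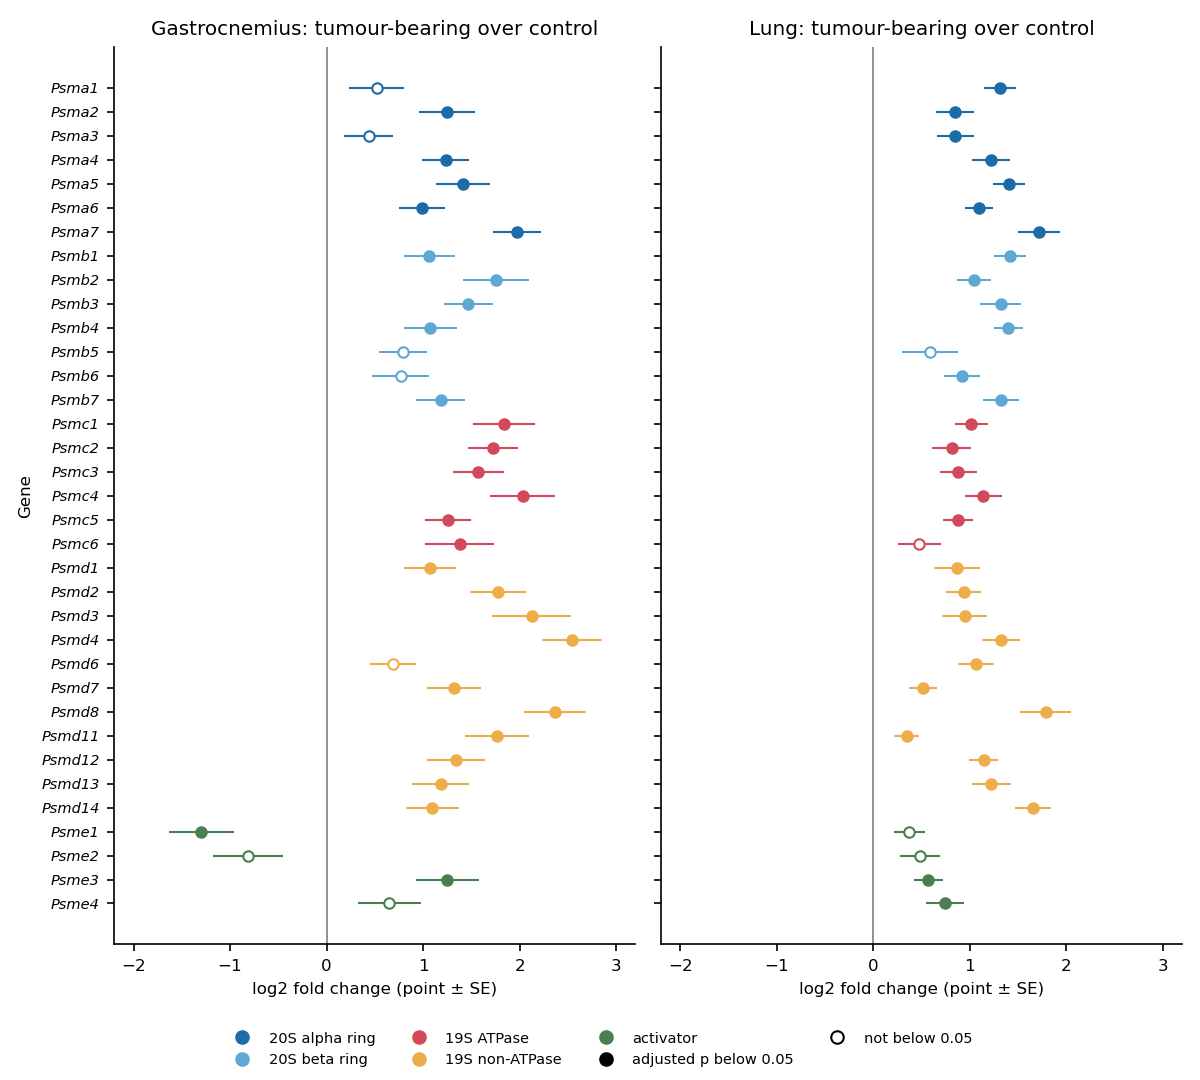
Log2 fold change of TB over CON for each of the 35 proteasome genes in gastrocnemius and lung (point, with SE as the line; filled points have an adjusted p below 0.05). All 31 core and cap genes lie to the right of 0 in both tissues (on log2(TPM + 1), Psmc6 and Psmd11 are left of 0 in lung), while Psme1 and Psme2 lie left of 0 in gastrocnemius.

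These calls depend on the number of control libraries. Without CON library 1, 2 or 3, 4, 2 and 2 members were called higher and none lower, and 243, 141 and 106 genes were called in all. Without TB library 1, 2 or 3, 29, 27 and 17 members were called higher. All 28 called members kept their direction in each of these 6 fits, and the median log2 change of the 35 stayed between 1.20 and 1.45. The adjusted p of the 28 reached 0.122, 0.162 and 0.147 without CON library 1, 2 and 3, and 0.0709 without TB library 3. Psmd4 alone kept its call in all 6 fits. Every TB library lay above every CON library for 31 members and below for 2, where this held for 21.1% and 22% of all genes. In TPM these counts were 25 and 2 members, against 12.2% and 13.3% of all genes.

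The largest rise in muscle was that of Psmd4, which encodes RPN10, a ubiquitin receptor of the cap. Its level was 649, 511 and 908 CPM in TB muscle libraries 1 to 3, against 111, 121 and 122 CPM in CON muscle libraries 1 to 3. The lowest TB library stood far above the highest CON library. The mean was 689 ± 202 CPM in TB and 118 ± 5.91 CPM in CON (SD, n = 3 each), a log2 fold change of 2.54 (SE 0.31, adjusted p = 0.00604). Its adjusted p stayed at or below 0.0434 with any 1 library left out.

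Next came Psmd8, a lid subunit (RPN12), with 1217, 686 and 969.6 CPM in TB and 207, 193 and 156 CPM in CON muscle. The groups were well apart, and the log2 change was 2.37 (SE 0.32, adjusted p = 0.00715). It lost its call without CON library 3 (adjusted p = 0.0541). Psmd3, another lid subunit (RPN3), had 325, 109 and 161 CPM in TB and 48.1, 49.8 and 38.2 CPM in CON. TB library 1 stood above the other TB libraries, and all 3 were above CON. The log2 change was 2.13 (SE 0.41, adjusted p = 0.0169). Psmc4, an ATPase of the cap ring, had 349, 172 and 357 CPM in TB and 70.7, 69.9 and 74.5 CPM in CON. In CPM, TB library 2 was the lowest of the TB libraries for each of these 4 genes, and still above CON. In TPM, TB library 3 was the lowest for Psmd8 and Psmd3. For Psmc4 the log2 change was 2.03, with an SE of 0.34 (adjusted p = 0.0118). Neither Psmd3 nor Psmc4 kept its call without CON library 1, 2 or 3, where the adjusted p reached 0.0887 and 0.0720. Psma7, the alpha gene with the largest rise, had 223, 186 and 209.7 CPM in TB and 52.7, 52.6 and 52.1 CPM in CON muscle (log2 change 1.97, SE 0.25, adjusted p = 0.00604; 0.0509 without CON library 2).

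The genes of the cutting sites had smaller log2 changes. Psmb7, the trypsin-like subunit, had 208, 211 and 265 CPM in TB and 106, 105 and 91.0 CPM in CON muscle. The groups did not overlap, with a log2 change of 1.18 (SE 0.26, adjusted p = 0.0217; up to 0.119 without any 1 CON library). Psmb5, the chymotrypsin-like subunit, had 92.4, 118 and 96.6 CPM in TB and 61.7, 64.2 and 50.98 CPM in CON. Its TB libraries were all above CON, but the log2 change of 0.79 (SE 0.25) did not pass (adjusted p = 0.0602; 0.0431 without TB library 1). Psmb6, the caspase-like subunit, had 168, 208 and 311 CPM in TB and 121, 141 and 142 CPM in CON. It too stood above CON in each TB library without passing (log2 change 0.77, SE 0.30, adjusted p = 0.102; 0.0472 without TB library 1). Psma3, an alpha-ring gene, had the smallest change of the core and cap, with 128, 181 and 163 CPM in TB and 119, 112 and 117 CPM in CON. Its log2 change of 0.44 (SE 0.25) did not pass (adjusted p = 0.242), nor did those of Psma1, which was 0.52 (SE 0.28, adjusted p = 0.214), and of Psmd6.

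Psme1 and Psme2 encode the alpha and beta subunits of PA28, an interferon-induced cap that opens the core without ubiquitin. Psme1 had 9.19, 17.6 and 18.8 CPM in TB muscle and 30.6, 34.6 and 46.9 CPM in CON muscle. All TB libraries were below CON, with a log2 change of -1.30 (SE 0.34, adjusted p = 0.0366). The call was lost without CON library 1, 2 or 3 or TB library 3, where the adjusted p reached 0.142. Psme2 had 7.26, 19.2 and 11.7 CPM in TB and 20.4, 20.5 and 26.2 CPM in CON. It lay below CON in each TB library and did not pass (log2 change -0.81, SE 0.36, adjusted p = 0.141; 0.0235 without TB library 2).

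Psme3 (PA28 gamma, the nuclear activator) went the other way, with 88.1, 42.7 and 52.04 CPM in TB and 28.4, 27.0 and 21.3 CPM in CON muscle. It was above CON in all TB libraries, with a log2 change of 1.25 (SE 0.32, adjusted p = 0.0364; up to 0.146 where a CON library or TB library 3 was left out). Psme4 (PA200) had 174, 152 and 99.4 CPM in TB and 120, 84.5 and 67.0 CPM in CON muscle. The groups overlapped, and the log2 change of 0.65 (SE 0.32) did not pass (adjusted p = 0.180).

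**Figure D2:**
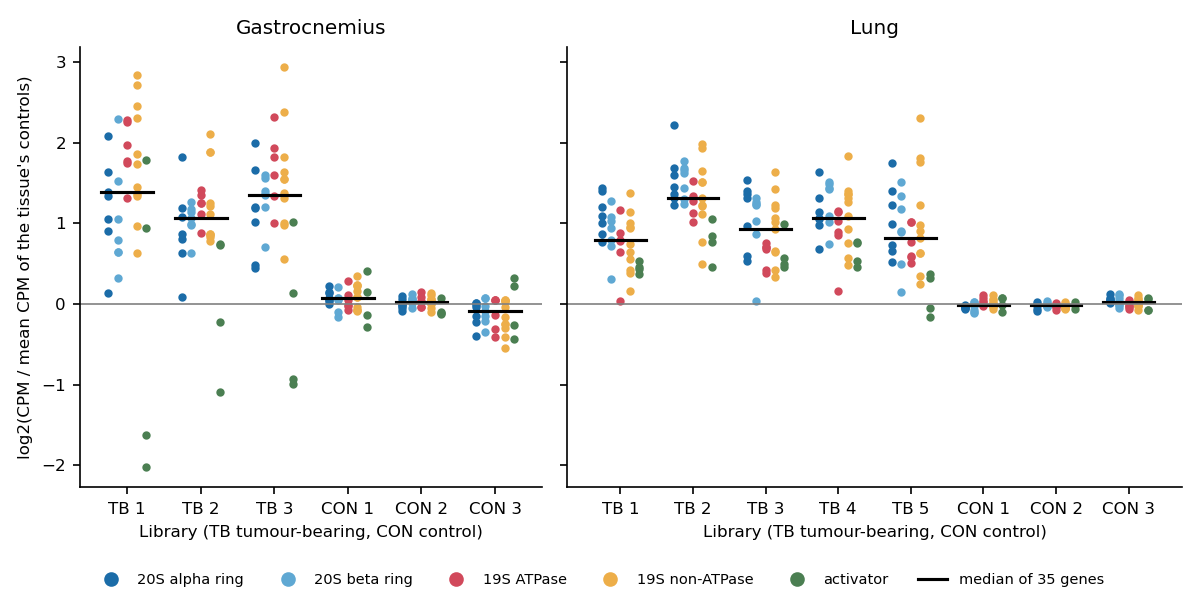
Log2 of each member's CPM over the mean CPM of the same tissue's CON libraries, 1 point per gene in each library (TB libraries left, CON libraries right in each panel; the bar is the median of 35 genes). The medians are 1.39, 1.07 and 1.36 in TB muscle against 0.07, 0.03 and -0.09 in CON muscle, and 0.80 to 1.32 in TB lung against -0.02 to 0.03 in CON lung.

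Seen by library, 33 of the 35 members were above the CON mean in each TB muscle library. In each of them the ATPase genes had the largest median log2 change of the 4 parts of the core and cap, 1.88, 1.26 and 1.71 in libraries 1 to 3. Scale matters within the groups: the members summed to 6061 to 8086 CPM in TB and 2496 to 2764 CPM in CON muscle, but to 4019 to 7265 TPM in TB and 1400 to 2701 TPM in CON muscle. On log2(TPM + 1), limma called 5 members higher and none lower: Psma7, Psmc2, Psmc4, Psmd4 and Psmd8. Upper-quartile scaling moved the median of all genes to -0.25 and that of the members to 1.00, and the split of all calls to 760 higher and 1079 lower, against 1226 and 970. On log2(TPM + 1) that split was 157 and 258.

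Markers of other cell types moved in muscle as well. Neutrophil markers summed to 4.24 to 4.94 CPM in TB and 0.537 to 1.26 CPM in CON, with 3 of 3 tested higher. Fibroblast markers summed to 350 to 982 CPM in TB and 636 to 1485 CPM in CON, with 3 of 5 lower. One of 5 macrophage markers was higher, and 1 of 3 alveolar type 1, 1 of 4 endothelial, the 1 tested T and NK cell marker and the 1 tested B cell marker were lower. None of the general leukocyte (3), epithelial (1), erythrocyte (2) and proliferation (2) markers tested passed. Erythrocyte markers ranged from 307 to 5419 CPM in TB and from 234 to 410 CPM in CON. The part of these shifts in the proteasome values was not tested.

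In TB lung, 31 of the 35 members were higher than in CON lung, none was lower, and 4 did not pass (Psmb5, Psmc6, Psme1 and Psme2). The background was broad: of the 19300 genes tested, 59.7% passed, 30.4% as higher and 29.3% as lower. The median log2 change was 1.02 over the members and 0.07 over all genes. All 7 alpha genes, 6 of 7 beta genes, 5 of 6 ATPase genes and all 11 non-ATPase genes rose, with median log2 changes of 1.22, 1.32, 0.88 and 1.07. Every TB library exceeded every CON library for 31 members and lay below for none, where this held for 30.9% and 32.1% of all genes.

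Psmd8 had the largest rise in lung, with 168, 291, 204, 270.0 and 377 CPM in TB lung libraries 1 to 5, against 76.4, 75.3 and 75.9 CPM in CON lung libraries 1 to 3. The CON libraries were nearly equal while the TB libraries spread more than 2-fold, and all lay above CON. The mean was 262 ± 81.2 CPM in TB (SD, n = 5) and 75.9 ± 0.545 CPM in CON (n = 3), a log2 change of 1.79 (SE 0.27, adjusted p = 0.000445). Psma7 had 147, 260, 146, 173 and 187 CPM in TB and 54.5, 55.0 and 57.2 CPM in CON lung (log2 change 1.72, SE 0.22, adjusted p = 0.000174). TB library 2 was the highest, and the groups were clearly apart.

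Psmd14, the cap's deubiquitinase (RPN11), had 87.9, 135, 105, 87.1 and 119 CPM in TB and 33.6, 32.7 and 35.6 CPM in CON lung. Every TB library was above CON, with a log2 change of 1.65 (SE 0.19, adjusted p = 8.51e-05). Psmb1, a structural beta subunit, had 191, 279, 225, 259 and 258 CPM in TB and 88.7, 92.9 and 90.0 CPM in CON lung. Again the groups did not overlap (log2 change 1.42, SE 0.16, adjusted p = 0.000104). These 4 genes kept their calls with any 1 library left out and in all 9 other settings.

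Of the cutting subunits, Psmb7 had 123, 205, 153, 171 and 144 CPM in TB and 63.3, 62.3 and 65.1 CPM in CON lung, with a log2 change of 1.32 (SE 0.18, adjusted p = 0.000297). Psmb6 had 129, 176, 136, 158 and 104 CPM in TB and 75.7, 73.0 and 73.9 CPM in CON lung (log2 change 0.92, SE 0.18, adjusted p = 0.00221; 0.0683 on log2(TPM + 1)). Both were higher in every TB library in CPM. In TPM the groups overlapped for Psmb6 (172 to 312 in TB and 175 to 188 in CON). Psmb5 had 59.1, 118, 49.2, 80.3 and 52.8 CPM in TB and 44.2, 47.3 and 51.8 CPM in CON lung. TB library 2 stood high, TB library 3 lay within the CON range, and the log2 change of 0.59 (SE 0.29) did not pass (adjusted p = 0.108).

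Psmd11, a lid subunit (RPN6), was at the margin. It had 74.7, 93.7, 83.7, 93.2 and 79.0 CPM in TB and 65.7, 66.5 and 67.6 CPM in CON lung, a log2 change of 0.35 (SE 0.13, adjusted p = 0.0417). In TPM the order was the opposite: the TB libraries ranged from 33.0 to 42.0 TPM and the CON libraries from 44.0 to 45.0 TPM, and the change on log2(TPM + 1) was -0.22 (limma, adjusted p = 0.155). The call was also lost without any 1 CON library or TB library 3 (adjusted p up to 0.138). Psmc6, an ATPase, had 72.4, 142, 91.7, 78.5 and 106 CPM in TB and 72.6, 68.7 and 70.2 CPM in CON lung. The groups overlapped in library 1, and its log2 change of 0.48 (SE 0.22) did not pass (adjusted p = 0.0922; 0.0376 without TB library 1).

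Of the activators, Psme3 and Psme4 rose in lung. Psme1 had 121, 129, 131, 135 and 90.0 CPM in TB and 98.6, 92.3 and 88.9 CPM in CON, and Psme2 had 78.6, 97.8, 81.0, 75.1 and 48.7 CPM in TB and 54.0, 52.2 and 57.4 CPM in CON. In both genes TB library 5 fell into or below the CON range, and the log2 changes of 0.38 (SE 0.16, adjusted p = 0.0699) for Psme1 and 0.48 (SE 0.21, adjusted p = 0.0727) for Psme2 did not pass. Without TB library 5 both passed (adjusted p = 0.00645 and 0.004). Psme3 had 92.8, 118, 94.4, 118 and 88.9 CPM in TB and 72.4, 68.4 and 65.5 CPM in CON (log2 change 0.57, SE 0.15, adjusted p = 0.00912; 0.0516 without CON library 3). Psme4 had 96.0, 145, 138, 118 and 87.2 CPM in TB and 65.4, 70.9 and 73.2 CPM in CON (log2 change 0.74, SE 0.20, adjusted p = 0.00957). In CPM both Psme3 and Psme4 were higher in every TB library, but in TPM the groups overlapped for both. Psme3 ranged from 38.2 to 53.4 TPM in TB and from 41.3 to 49.4 TPM in CON. Psme4 ranged from 15.8 to 29.65 TPM in TB and from 16.7 to 17.9 TPM in CON. Both lost their calls on log2(TPM + 1), and Psme3 also with all 14 libraries in 1 fit. Of the other calls in lung, that of Psmd7 was lost without CON library 2 or 3, with an adjusted p up to 0.0652.

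Other markers differed widely between the lung groups. The 5 proliferation markers summed to 268 to 651 CPM in TB and 28.9 to 41.4 CPM in CON, with 5 of 5 higher, and the 4 epithelial markers summed to 8428 to 15470 CPM in TB and 955 to 968 CPM in CON, with 4 of 4 higher. All 5 alveolar type 2, 4 alveolar type 1, 4 endothelial, 3 B cell and 2 erythrocyte markers were lower. Of leukocyte, neutrophil, macrophage and fibroblast markers, 2 each were lower, and no T and NK cell marker passed. Their part in the proteasome values was not tested. On log2(TPM + 1) the median of all genes moved to -0.23 and that of the members to 0.56, with 21 of the 31 calls kept. All calls then split into 3594 higher and 7994 lower, against 5862 and 5651. In TPM, 21 members lay above CON in every TB library and 1, Psmd11, below, where this held for 19.7% and 41.8% of all genes.

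**Figure D3:**
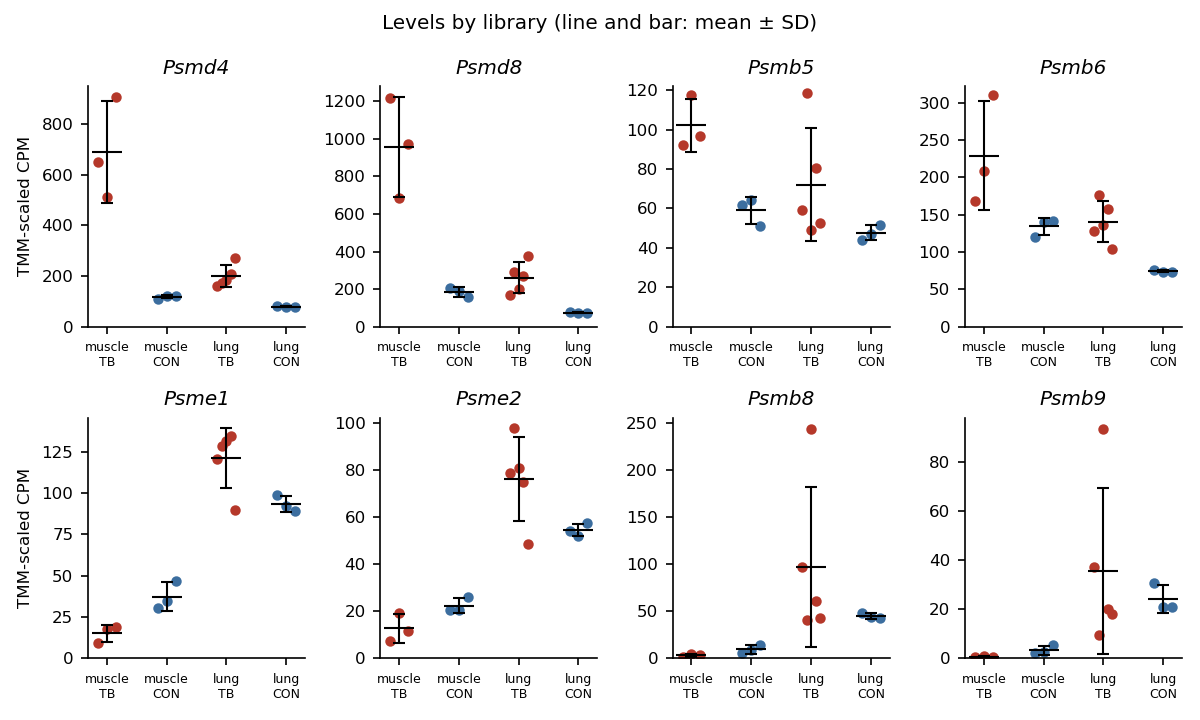
TMM-scaled CPM of 6 proteasome genes and of the inducible subunit genes Psmb8 and Psmb9 by library (points; the line and bar are mean ± SD; TB with n = 3 in muscle and 5 in lung, CON with n = 3). Psmd4 and Psmd8 lie above CON in every TB library of both tissues, and Psme1, Psme2, Psmb8 and Psmb9 lie below CON in every TB muscle library; CPM are scaled within each tissue.

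Between the tissues, 26 members rose in both, where 483 of the 13885 genes tested in both tissues (3.48%) did. Psma1, Psma3, Psmb6, Psmd6 and Psme4 passed in lung without passing in muscle, Psmc6 the other way round, and Psmb5 and Psme2 passed in neither. Whether the responses differed was tested as the tumour effect in lung minus that in muscle, in 1 fit of all 14 libraries. Here 2 members were higher, 4 were lower and 29 did not pass, against 16.6% higher and 19% lower (35.6% in all) among the 19834 genes tested. The median difference was -0.19 over the members and -0.05 over all genes.

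**Figure D4:**
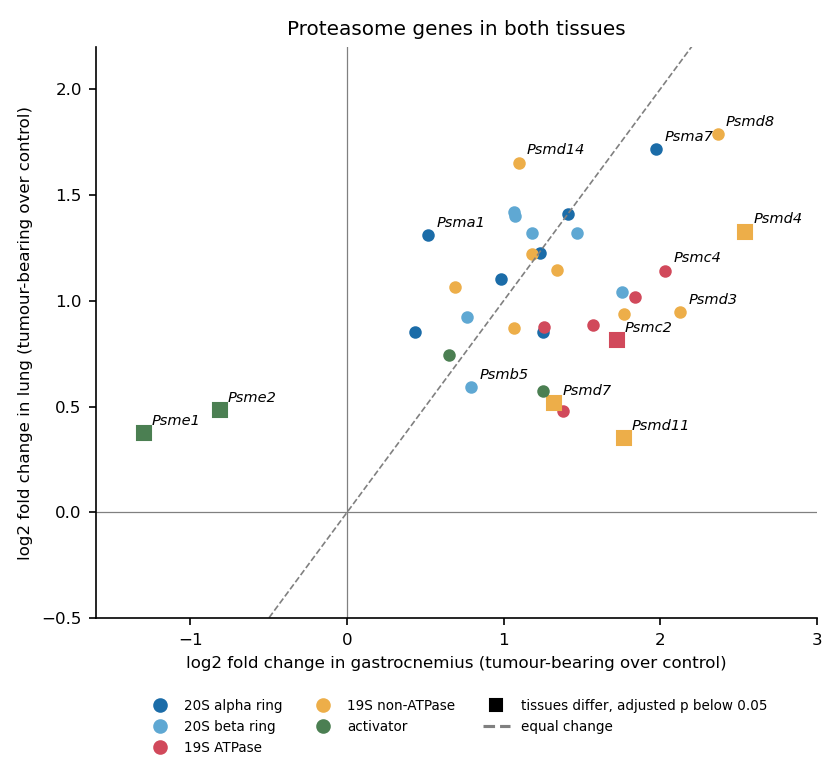
Log2 fold change of TB over CON in lung (vertical) against that in gastrocnemius (horizontal), 1 point per proteasome gene, with a dashed line of equal change. Squares mark the 6 genes whose difference between tissues has an adjusted p below 0.05: Psme1 and Psme2 at the left, and Psmc2, Psmd4, Psmd7 and Psmd11 below the line.

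In the fit of all 14 libraries the difference was negative for 14 of the 17 cap genes and 6 of the 14 core genes, that is, larger in muscle. On log2(TPM + 1) it was negative for 17 and 11 of them. The median difference over all genes also moved, from -0.05 in the main fit to -0.33 on log2(TPM + 1). Of the core and cap genes Psmd11 had the largest difference, -1.41 (SE 0.32, adjusted p = 0.00345): its log2 change was 1.77 in muscle (249, 109.5 and 157 CPM in TB, 49.1, 50.6 and 51.6 CPM in CON) and 0.35 in lung. Psmd4 differed by -1.21 (SE 0.32, adjusted p = 0.00882), with a rise in both tissues. Psmd3 differed by -1.17 (SE 0.45) without passing (adjusted p = 0.0578; 0.0162 to 0.0485 without TB muscle library 2 or 3 or TB lung library 4). Psmc2, an ATPase, differed by -0.91 (SE 0.30, adjusted p = 0.0277), and Psmd7, the partner of Psmd14 in the lid (RPN8), by -0.80 (SE 0.27, adjusted p = 0.0300). Both rose in both tissues.

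In the other direction stood PA28. The difference was 1.66 for Psme1 (SE 0.36, adjusted p = 0.00254) and 1.27 for Psme2 (SE 0.43, adjusted p = 0.0323). The largest difference in the core was that of Psma1, 0.80 (SE 0.30, adjusted p = 0.0509; 0.0105 to 0.0431 without TB muscle library 1 or TB lung library 1, 4 or 5). Psmc6 did not pass (adjusted p = 0.113; 0.0496 without TB lung library 2). Psmd4, Psmd11 and Psme1 kept their calls with any 1 of the 14 libraries left out. Psmc2, Psmd7 and Psme2 each lost the call without any 1 CON library of either tissue or TB muscle library 3, Psmc2 and Psmd7 also without TB lung library 5, and Psme2 also without TB muscle library 1, with adjusted p up to 0.0674, 0.0791 and 0.0768. The number of members called lower ran from 2 to 9 over these fits, with 9 without TB lung library 2. On log2(TPM + 1) it was 9, the members' median was -0.78 and the split of all calls was 2401 higher and 6624 lower, against 3287 and 3770.

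Across the 35 genes the log2 changes of the tissues had a Pearson r of 0.42 and a Spearman rho of 0.25. Over the 31 core and cap genes r was 0.17, in the core 0.52 (14 genes) and in the cap 0.22 (17 genes). These are descriptions across genes of 1 complex that share their libraries, so genes are not independent replicates.

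The inducible subunits Psmb8, Psmb9 and Psmb10 replace Psmb5, Psmb6 and Psmb7 in the immunoproteasome, which cells build under interferon. In muscle all 3 fell, while Psmb7 rose and Psmb5 and Psmb6 did not pass. Psmb8 had 1.66, 4.43 and 3.13 CPM in TB and 5.40, 8.78 and 14.1 CPM in CON muscle (log2 change -1.62, SE 0.46, adjusted p = 0.0462). Psmb9 had 0.507, 1.00 and 0.463 CPM in TB and 2.06, 2.49 and 5.28 CPM in CON muscle (log2 change -2.30, SE 0.50, adjusted p = 0.0226). Psmb10 had 2.03, 6.20 and 4.56 CPM in TB and 11.4, 12.95 and 14.7 CPM in CON muscle (log2 change -1.61, SE 0.40, adjusted p = 0.0325). All 3 lay below CON in every TB library, where this held for 22% of all genes. None kept its call without CON library 1, 2 or 3 or without TB library 3, nor Psmb8 and Psmb9 without TB library 1. In these fits the adjusted p reached 0.173. None of the 3 passed on log2(TPM + 1), and Psmb8 did not pass with all 14 libraries in 1 fit (adjusted p = 0.0783).

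Per length, Psmb8 stood at 0.0136, 0.0239 and 0.0237 times the TPM of Psmb5 in TB muscle, against 0.0555, 0.0871 and 0.153 times in CON muscle. Psmb9 stood at 0.00202, 0.00325 and 0.00221 times Psmb6 in TB, against 0.0132, 0.0189 and 0.0254 times in CON muscle. Psmb10 stood at 0.0201, 0.0743 and 0.0514 times Psmb7 in TB, against 0.302, 0.375 and 0.497 times in CON muscle. All 3 ratios were lower in every TB muscle library than in any CON muscle library.

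In lung none of the inducible genes passed. Psmb8 had 96.7, 41.1, 244, 61.3 and 42.6 CPM in TB and 48.2, 43.9 and 42.6 CPM in CON lung, so TB library 3 was far above the rest and 2 TB libraries were at or below the lowest CON library (log2 change 1.11, SE 0.58, adjusted p = 0.129). Psmb9 changed by 0.57 (SE 0.65, adjusted p = 0.475) and Psmb10 by 0.64 (SE 0.40, adjusted p = 0.187; 0.0406 without TB library 5). Without TB library 3 the log2 change of Psmb9 was -0.17 (adjusted p = 0.739). The differences between tissues passed for Psmb8 (2.71, adjusted p = 0.0199), Psmb9 (2.85, adjusted p = 0.0289) and Psmb10 (2.24, adjusted p = 0.0112). Psmb8 and Psmb9 lost them without CON muscle library 3 or TB muscle library 1, and Psmb9 also without TB muscle library 3 or CON lung library 2 or 3, with adjusted p up to 0.0585 and 0.0854. Neither passed with limma-voom (adjusted p = 0.0627 and 0.159) or on log2(TPM + 1) (adjusted p = 0.189 and 0.155). Of the tissue-specific subunits, Psmb11 of the thymus stayed below the filter, and Psma8 of the testis was tested in lung alone, with a mean of 0.114 CPM in TB and 0.248 CPM in CON (adjusted p = 0.262).

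**Figure D5:**
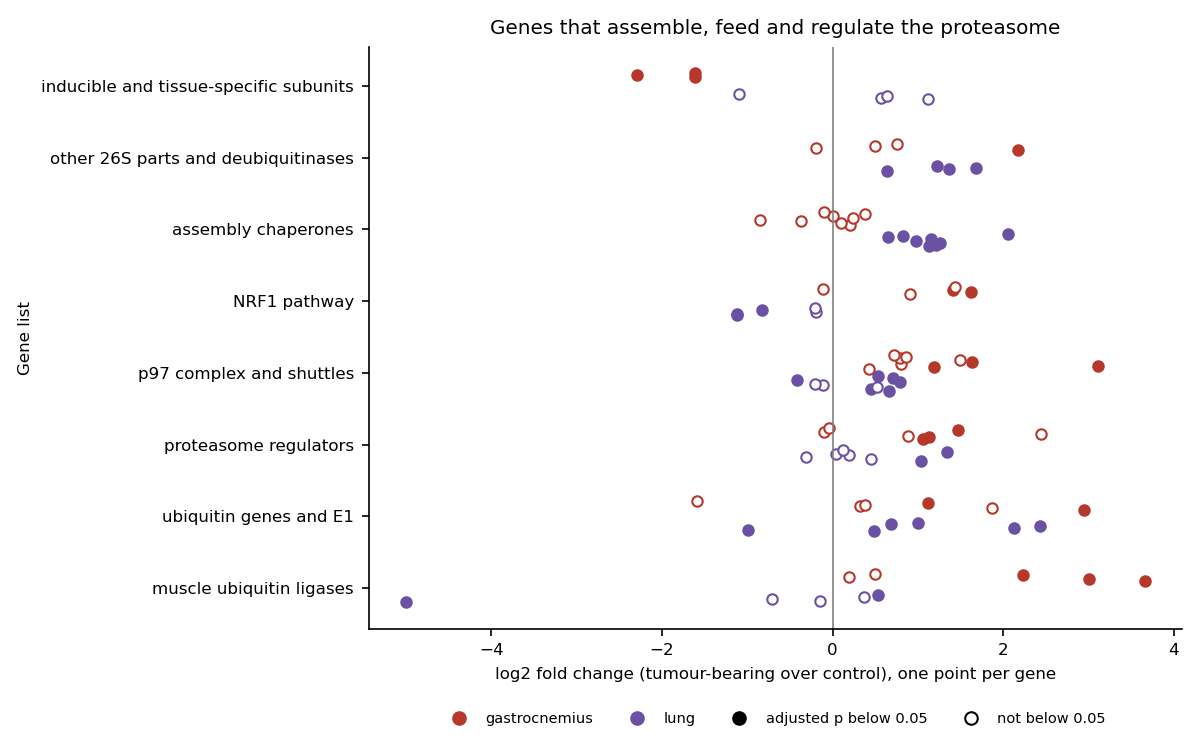
Log2 fold change of TB over CON for the genes around the proteasome, 1 point per gene in gastrocnemius and lung, by list (filled points have an adjusted p below 0.05). Assembly chaperones are all filled and right of 0 in lung, with none filled in gastrocnemius, and the NRF1 pathway lies mostly right of 0 in gastrocnemius and left of 0 in lung.

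Of the 17 genes around the proteasome that were called in muscle, 4, 0 and 0 kept the call without CON library 1, 2 and 3, with adjusted p up to 0.137, 0.176 and 0.173. Without TB library 1, 2 and 3, 12, 17 and 8 kept it. All 17 kept their direction in each fit. Of the 31 called in lung, 23 to 25 kept the call without 1 CON library and 29 to 31 without 1 TB library. Among all genes tested, 8.53% were higher and 6.75% lower in muscle, and 30.4% were higher and 29.3% lower in lung. For the difference between tissues, 16.6% were higher and 19% lower. The counts by list given below stand against these shares.

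Genes that build the proteasome moved in lung. All 8 assembly chaperones found were higher in TB lung (median log2 change 1.14), and 0 of 8 passed in muscle (median 0.05; Psmg3 and Psmd9 came nearest, with adjusted p of 0.139 and 0.313). Psmd10 (gankyrin, a chaperone of the cap) had 38.9, 48.2, 47.3, 44.6 and 44.9 CPM in TB and 10.7, 10.6 and 10.97 CPM in CON lung. All TB libraries stood apart from CON (log2 change 2.06, SE 0.15, adjusted p = 8.63e-06). Pomp, which matures the core, changed by 1.13 (SE 0.15, adjusted p = 0.000235). On log2(TPM + 1), 3 of the 8 passed in lung: Psmd10, Pomp and Psmg2. The difference between tissues passed for 4 of the 8, Psmd10, Psmg2, Psmg3 and Pomp, where it passed for 35.6% of all genes. On log2(TPM + 1) the call of Psmg2 was lost, and the difference of Pomp turned to -0.16 (adjusted p = 0.739), against 0.92. Pomp also lost its call with no filter, the replicate block and upper-quartile scaling (adjusted p up to 0.0881) and without any 1 CON library, TB muscle library 1 or TB lung library 1, 2 or 3, with adjusted p up to 0.0944.

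NRF1, encoded by Nfe2l1, is the transcription factor that raises proteasome genes when the proteasome is impaired. It is freed from the endoplasmic reticulum through Sel1l and Syvn1, deglycosylated by Ngly1 and cut by the protease Ddi2. Ddi2 had 108, 43.3 and 81.5 CPM in TB and 29.4, 25.4 and 21.0 CPM in CON muscle (log2 change 1.62, SE 0.36, adjusted p = 0.0234). Ngly1 also rose in muscle, by 1.41 (SE 0.33, adjusted p = 0.0264). Nfe2l1 itself did not pass there (log2 change 0.90, SE 0.40, adjusted p = 0.136), nor did Sel1l and Syvn1 (adjusted p = 0.0697 for Syvn1; 0.0247 without TB library 2).

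In lung 3 of the 5 genes were lower and none higher, where 29.3% of all genes were lower. Nfe2l1 had 128, 138, 175, 183 and 174 CPM in TB and 368, 346 and 328 CPM in CON lung (log2 change -1.12, SE 0.16, adjusted p = 0.000357). Ddi2 had 85.6, 89.1, 75.3, 64.1 and 78.3 CPM in TB and 168, 174 and 169 CPM in CON lung (log2 change -1.12, SE 0.14, adjusted p = 0.000151). In both genes every TB library was below CON, where this held for 32.1% of all genes. The part of NRF1 in the proteasome values was not tested. Sel1l fell as well, with a log2 change of -0.82 and an SE of 0.20 (adjusted p = 0.00611). The difference between tissues was negative and passed for Nfe2l1 (-2.02, adjusted p = 0.00216), Ddi2 (-2.73, adjusted p = 5.80e-05), Ngly1 (-1.599, adjusted p = 0.00273) and Syvn1 (-1.63, adjusted p = 0.0455). The first 3 kept that call with any 1 library left out, and Syvn1 lost it in 11 of the 14 left-out fits, with an adjusted p up to 0.2098.

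Among the genes that bring substrates to the proteasome, 3 of 9 rose in muscle, where 8.53% of all genes did. Nploc4, which guides the unfoldase p97 (Vcp) to ubiquitin chains, had 341, 81.5 and 163 CPM in TB and 28.4, 24.4 and 14.6 CPM in CON muscle. The TB libraries varied widely and all exceeded CON (log2 change 3.12, SE 0.53, adjusted p = 0.0127). Ufd1, the partner of Nploc4, passed as well. In lung 5 of the 9 rose, where 30.4% of all genes did, Ubqln2 (0.70, adjusted p = 0.00119) and Rad23b (0.79, adjusted p = 0.00713) with the smallest p. None of these 5 passed on log2(TPM + 1), where the adjusted p of Ubqln2 and Rad23b was 0.140 and 0.163 and the change of Ufd1 turned to -0.146. Ubqln1 fell, a call lost in 6 of the 8 left-out fits (adjusted p up to 0.101).

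The other parts of the 26S complex were higher in lung in 4 of 4 genes, led by Sem1 (log2 change 1.36, SE 0.18, adjusted p = 0.000217) and the deubiquitinase Uchl5 (1.68, SE 0.28, adjusted p = 0.000753). Adrm1 lost its lung call on log2(TPM + 1), where its change was 0.195 against 0.64 (adjusted p = 0.207), and with the replicate block or all 14 libraries in 1 fit (adjusted p up to 0.0584). In muscle 1 of 4 rose: Adrm1, the ubiquitin receptor RPN13, had 413, 171 and 247 CPM in TB and 64.6, 62.6 and 56.4 CPM in CON (log2 change 2.18, SE 0.36, adjusted p = 0.0116). Every TB library was above CON, as for Psmd4, another receptor gene, where this held for 21.1% of all genes. The deubiquitinase Usp14 did not pass in muscle (0.76, adjusted p = 0.0937). Of 7 proteasome regulators, Psmf1, Ecpas (1.14, adjusted p = 0.0384) and Txnl1 (1.47, adjusted p = 0.0380) rose in muscle, and Psmf1 (1.03, adjusted p = 0.000518) and Txnl1 (1.34, adjusted p = 0.000137) in lung.

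The list of ubiquitin genes and activating enzymes held 6 genes. Ubb, which encodes ubiquitin, had 6444, 2236 and 3943 CPM in TB and 562, 551 and 529 CPM in CON muscle, a log2 change of 2.94 (SE 0.43, adjusted p = 0.00883) with the groups far apart. The activating enzyme Uba1 rose too (1.11, adjusted p = 0.0428), and the other 4 genes did not pass. In lung 5 of 6 rose and 1 fell, where 30.4% of all genes rose and 29.3% fell. The lung call of Ubb (log2 change 0.48, adjusted p = 0.0427) was lost without any 1 CON library or TB library 3 or 4 (adjusted p up to 0.156) and in 6 other settings, with a change of 0.033 on log2(TPM + 1). Uba6 also lost its call on that scale. Rps27a, which encodes ubiquitin fused to a ribosomal protein, had a log2 change of 2.43 there (adjusted p = 5.10e-05). It has near-identical copies in the genome, which makes its count uncertain.

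Of 5 muscle ubiquitin ligases 3 rose in muscle, where 8.53% of all genes did. Fbxo32 (atrogin-1) had 2145, 602 and 856 CPM in TB and 194, 150.3 and 105 CPM in CON muscle, a log2 change of 3.005 (SE 0.52, adjusted p = 0.0130). Fbxo31 changed by 2.23 (SE 0.36, adjusted p = 0.0113), and Trim63 (MuRF1) rose as well, with 2425, 367 and 2501 CPM in TB and 156, 144 and 117 CPM in CON. Each was above CON in every TB library. In CPM, TB library 2 was the lowest of the TB libraries for all 3, as it was for Psmd4 and Psmd8. This order was not shared by all members: in CPM, TB library 2 was the highest for Psma3, Psmb5, Psmd2 and Psmd6. It also depended on scale, since in TPM library 3 was the lowest for Fbxo32, Fbxo31 and Psmd8. In lung Trim63 fell to 0, 0.119, 0.0170, 0.0414 and 0 CPM in TB, against 0.456, 1.51 and 1.63 CPM in CON (adjusted p = 0.00111). Skeletal muscle fibre markers moved with it: they summed to 0.344 to 1.55 CPM in TB and 7.01 to 16.1 CPM in CON lung, with 3 of 3 tested lower, and their part in the Trim63 value was not tested. Fbxo21 rose in lung by 0.53 (adjusted p = 0.0190; up to 0.0772 without any 1 CON lung library).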

How the data were processed

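RNA-seq libraries, 14 in all, were prepared from total RNA with a directional kit and read at 100 bases, per the labels. The authors' tools were Trim Galore, STAR 2.7.9a (the aligner) and RSEM 1.3.3 (gene quantification), per the submitters' processing notes, and the sources used here do not give the genome build. The deposited tables hold an expected count per gene, which RSEM estimates by sharing reads among matching genes, and TPM, which the authors' tables scale by gene length and library. Values were not whole for 12 of the 35 members in some library, so these share reads with other sequences and their levels are less certain. For 6 this held in every library (Psma4, Psmb3, Psmb5, Psmb7, Psmd1 and Psmd11). For Psme2 it held in 9 libraries, and a gene named as its copy, Psme2b, reached at most 470 counts and 14.7 TPM in any library.

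Expected counts were rounded and tested with edgeR 4.0.16 in R 4.3.3 (TMM scaling, filterByExpr, quasi-likelihood test, two-sided, Benjamini-Hochberg threshold 0.05 over all genes tested), per tissue, and for the difference between tissues in 1 fit of 14 libraries. CPM are scaled by TMM within a tissue. SE is the log2 fold change divided by the square root of F. DESeq2 1.42.0 and limma 3.58.1 (with voom and on log2(TPM + 1) with a pseudocount of 1) were alternatives, as were other size factors, filters, a replicate block and leaving out each library. The fits were also run on simulated counts with the same spread setting for every gene and group. That run cannot show how the fits perform at the spread of these libraries.

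Named members are Psmb5, Psmb6, Psmb7, the activators and, in each tissue, the 4 largest and 3 smallest log2 changes (3 and 3 for the difference between tissues); of 8 lists of related genes (49 of 50 found), the 2 with the smallest p in each tissue and all inducible subunits. Psma7, Ufd1, Sel1l, Syvn1 and Trim63 in muscle, Psmg2 and the genes named by their calls were added after their values were seen. Some genes that this rule names are not reported here. The members and lists were chosen with earlier results of these data known. The main fits did not use the replicate numbers as pairs. Promoter windows are from RefSeq (GRCm38.p6).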

Additional observations from a re-analysis of the deposited data

Results flagged for a closer look

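In lung, the TB library 2 value stood far from those of the other 4 TB libraries for 3 of the 35 members tested: Psmc3 at 239 CPM, Psmd1 at 286 CPM and Psmd6 at 102 CPM. Chance alone gives such a gap in about 1 in 20 genes. The 3 values share 1 library, so they are not independent draws against that rate. Library 2 also had the highest summed level of the 35 genes in TB lung, 6115 CPM, where the others had 4204 to 5028 CPM.

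The tumour effect differed between the tissues, by the test of the difference itself, for 6 members and for all 3 inducible subunits. The other 29 members did not pass, where 35.6% of the 19834 genes tested passed. The lung effect minus the muscle effect was -0.91 on the log2 scale for Psmc2, -1.21 for Psmd4, -0.80 for Psmd7 and -1.41 for Psmd11. It was 1.66 for Psme1 and 1.27 for Psme2, and 2.71 for Psmb8, 2.85 for Psmb9 and 2.24 for Psmb10. Psmc2, Psmd7 and Psme2 each lost the call in 8 of the 14 left-out fits, and Psmd4, Psmd11 and Psme1 kept it in all. Psmb8 lost it in 2 of these fits and Psmb9 in 5. Both also lost it with limma-voom and on log2(TPM + 1).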

How the results depend on the processing

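In muscle, the count of all genes past the threshold was 2196 and became 3657 with DESeq2, 4031 with no filter, 3303 with the replicate block, 3459 with all 14 libraries in 1 fit and 415 on log2(TPM + 1), where 5 members were higher and 0 lower. With 1 library left out, all genes ranged from 106 to 4513, members higher from 2 to 29, members lower from 0 to 2 and the members' median from 1.20 to 1.45. In lung, log2(TPM + 1) gave a members' median of 0.563. Leaving out 1 library there gave 9405 to 11674 genes, 28 to 33 members higher, 0 lower and a median of 0.946 to 1.09. For the difference between tissues, log2(TPM + 1) gave 1 member higher, 9 lower and a median of -0.778, and no filter gave 2 lower. Leaving out 1 library gave 5703 to 7641 genes, 1 to 3 members higher, 2 to 9 lower and a median of -0.405 to -0.046. Among the called members and related genes, signs turned on log2(TPM + 1) for Psmd11 in lung (-0.22), Ufd1 in lung (-0.146) and Pomp in the difference between tissues (-0.16). The cause of these shifts was not tested.

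Replicate numbers are shared between groups. The deviations of same-numbered libraries had correlations of 0.356, -0.046 and 0.366 in muscle and 0.037, 0.058 and -0.001 in lung. In muscle the correlation was -0.345 for TB library 1 with CON library 3, and -0.405 for TB library 3 with CON library 1. Whether the numbers mark pairs or batches was not tested. With the replicate block all 28 called members kept their call in muscle, 30 of 31 in lung (not Psmd11) and 4 of 6 for the difference between tissues (not Psmc2 and Psmd7). All 28 muscle calls kept their direction in the 9 other settings, and 5 kept the call in all of them; in lung 21 of 31 kept the call in all 9.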
